A study of Mus musculus with 4 samples.

Results

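Irf8, F13a1, Ccr2, Klf4, Cx3cr1, Cd163, Msr1 and Mpeg1 are 8 genes that mark monocyte progenitors, monocytes and macrophages, and their transcripts were examined in bone marrow lacking Mtg16. The genes were chosen by name, and each was read from the probe that carries its symbol alone, taking the probe with the highest mean signal where a gene had several. Of the 8 genes, 6 had such a probe, 1 each, and Cx3cr1, the fractalkine receptor gene of monocyte progenitors, and Mpeg1, which encodes the pore-forming protein perforin-2 of macrophages, had none, so no value is given for them. The whole array gave 13840 genes with a probe of their own. Of these, 8444 were bright enough to be tested, among them Irf8, F13a1, Ccr2, Klf4 and Cd163 but not Msr1.

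The tested animals were female Mtg16-null mice aged 8 to 12 weeks, described as N4 backcrossed into C57BL/6, and the comparison animals were female wild-type C57BL/6 mice of the same age. Mtg16 (symbol Cbfa2t3) encodes a corepressor, related to ETO, that partner factors bring to DNA. For each array, marrow from the long bones of 4 mice was pooled, cells bearing markers of mature blood lineages were removed with magnetic columns, and RNA of the remaining lineage-negative cells was labelled and hybridised to a single-colour array. There were 2 Mtg16-null and 2 wild-type arrays, and each of 2 array lots held 1 array of each genotype. The labels do not say whether the 2 arrays of a genotype came from separate pools, so p-values measure only the spread between these 4 arrays, which may be technical. Because the null mice were from a backcross and the wild-type mice were not, genotype and remaining strain background cannot be told apart.

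Monocytes arise in the marrow from granulocyte-monocyte and monocyte-dendritic progenitors. The transcription factor IRF8 directs these progenitors toward monocytes and dendritic cells and away from neutrophils, and KLF4 acts after it in monocyte formation. Maturing monocytes carry the chemokine receptor CCR2, which they need to leave the marrow, whereas CD163 and the class A scavenger receptor encoded by Msr1 belong to differentiated macrophages.

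The promoter sequences of the 4 members with the largest differences are shown because 3 of them read higher and 1 read lower in the same null arrays. They come from RefSeq for the build GRCm38.p6, cover the 250 bases before an annotated start, and are written 5′ to 3′ on the strand of the gene. Irf8 and F13a1 had 2 annotated starts each, and the window with more motif matches is shown. Capitals mark matches, on either strand, to any of 9 motifs of blood and interferon regulators, and no match in these stretches overlapped another.
Irf8 (chr8:120736108-120736357, plus strand): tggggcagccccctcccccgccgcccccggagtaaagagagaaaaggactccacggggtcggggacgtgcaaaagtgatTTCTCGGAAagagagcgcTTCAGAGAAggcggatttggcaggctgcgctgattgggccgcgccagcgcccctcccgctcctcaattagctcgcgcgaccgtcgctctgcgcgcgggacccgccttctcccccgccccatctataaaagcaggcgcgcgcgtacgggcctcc
F13a1 (chr13:37049214-37049463, minus strand): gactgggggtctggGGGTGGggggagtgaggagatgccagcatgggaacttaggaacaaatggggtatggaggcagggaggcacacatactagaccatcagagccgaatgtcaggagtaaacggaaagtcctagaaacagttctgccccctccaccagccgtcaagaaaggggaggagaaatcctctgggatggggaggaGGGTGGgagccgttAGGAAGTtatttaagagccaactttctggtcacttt
Ccr2 (chr9:124101933-124102182, plus strand): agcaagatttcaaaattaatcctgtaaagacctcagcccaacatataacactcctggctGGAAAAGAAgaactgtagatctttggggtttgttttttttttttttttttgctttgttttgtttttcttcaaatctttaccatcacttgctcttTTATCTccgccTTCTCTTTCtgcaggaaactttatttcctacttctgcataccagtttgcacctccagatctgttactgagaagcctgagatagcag
Cd163 (chr6:124304401-124304650, plus strand): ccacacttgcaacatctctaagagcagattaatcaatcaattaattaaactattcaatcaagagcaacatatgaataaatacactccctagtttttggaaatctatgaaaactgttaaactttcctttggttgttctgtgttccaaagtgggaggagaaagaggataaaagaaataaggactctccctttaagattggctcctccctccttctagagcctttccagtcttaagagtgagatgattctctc

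The motifs were searched in windows of 250 bases before and 50 bases after the start. They were the interferon gamma activation site (TTCNNNGAA, in 8.3% of all 32851 promoter windows), a PU.1 core (AGGAAGT, 9.35%), a shortened IRF element (GAAANNGAA, 8.56%), a shortened ETS-IRF composite (GGAANNGAA, 8.24%), a C/EBP motif (TTGCNNAA, 10.8%), a RUNX motif (TGTGGT, 16.8%), an E-box (CAGNTG, 51.4%), a KLF motif (CCACCC, 31.5%) and a GATA motif (AGATAA, 11.2%). The Irf8 window held 2 matches to the interferon gamma activation site, at -171 to -163 and -153 to -145 from the start. The F13a1 window held PU.1 core matches at -36 to -30 and 16 to 22, and KLF motif matches at -236 to -231 and -50 to -45. The Ccr2 window held the shortened composite at -191 to -183, the GATA motif at -97 to -92 and the shortened IRF element at -86 to -78. The Cd163 window held no match to any of the 9 motifs, and the share of all windows without any match was not counted. The other annotated starts of Irf8 and F13a1 each had an E-box match and no other, as did the Klf4 window.

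Of the 5 tested members, 0 passed limma at an adjusted p under 0.05, against 0.118% of all genes tested (10 of 8444, all lower in null). At an unadjusted p under 0.05 there were 4 of the 5, with Irf8, F13a1 and Ccr2 higher and Cd163 lower, against 16.5% of all genes. Irf8, F13a1 and Ccr2 were 1.94-fold to 2.43-fold higher in null marrow and Cd163 was 1.67-fold lower. In 4 of the 5 tested members, Irf8, F13a1, Ccr2 and Klf4, both null arrays read above both wild-type arrays, an arrangement found in 22.6% of all tested genes, and in Cd163 both read below, as in 23.2%. The choice of these genes was made with results known, so the counts describe the genes and do not test the group. With 2 arrays against 2, an exact two-sided permutation test of a single gene cannot go below p = 0.333.

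**Figure D1:**
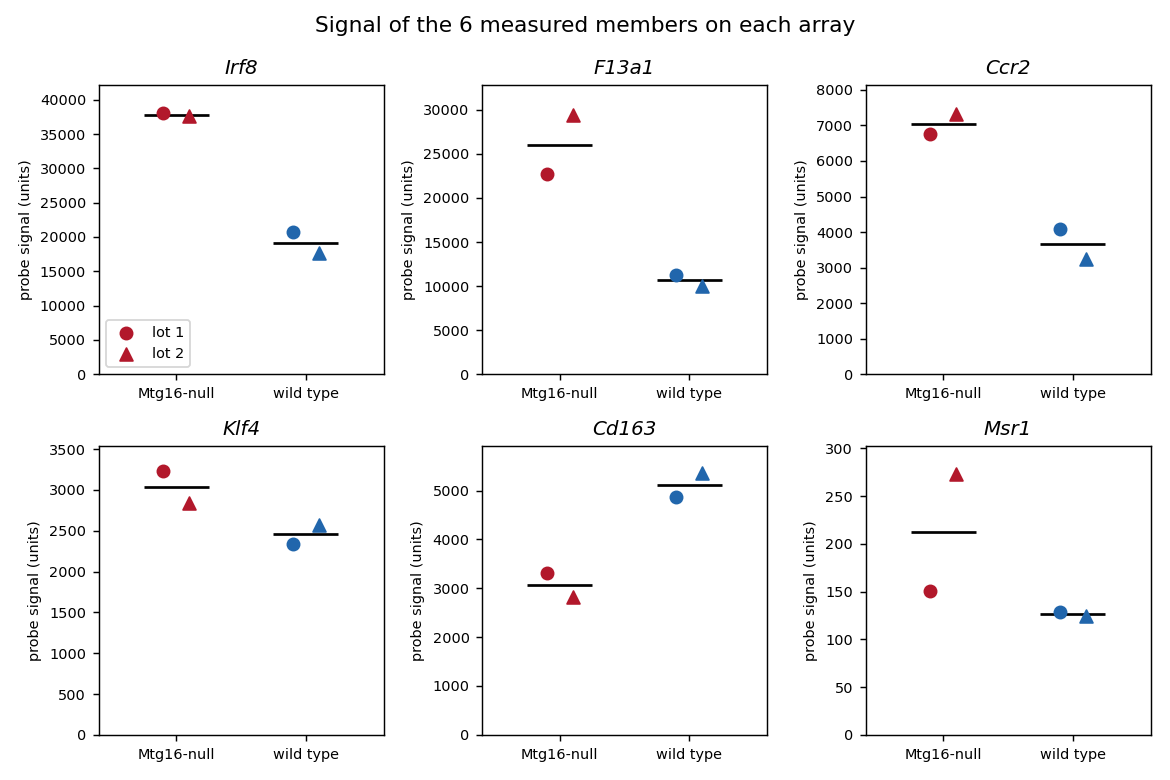
Probe signal (vertical axis, linear units from 0) of the 6 measured genes on the 2 Mtg16-null arrays (left, red) and the 2 wild-type arrays (right, blue); circles are array lot 1, triangles lot 2, and bars are group means. The null arrays lie above the wild-type arrays for Irf8, F13a1, Ccr2 and Klf4 and below them for Cd163. Msr1 never exceeded 273 units and is not resolved from background, so no difference is read from its points.

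Among the transcription factors, Irf8 read 38020 and 37594 signal units on the null arrays of lots 1 and 2, against 20655 and 17595 units on the wild-type arrays. Both null values were high and nearly equal, 0.02 apart on the log2 scale, and both exceeded the wild-type values, which were 0.23 apart. The lowest null array stood 1.82-fold above the highest wild-type array. The means were 37807 ± 301 units in null and 19125 ± 2164 units in wild type (SD, n = 2), a log2 difference of 0.99 (SE 0.18, 95% confidence interval 0.48 to 1.49, limma adjusted p = 0.122). Within lots, the difference was 0.88 in lot 1 and 1.10 in lot 2. By unadjusted p Irf8 ranked 368 among the 8444 genes.

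Klf4 gave 3234 and 2838 units on the null arrays, against 2336 and 2573 units on the wild-type arrays. The groups did not overlap, but the lower null array exceeded the higher wild-type array only 1.10-fold. The log2 difference was 0.31 (SE 0.18, 95% confidence interval -0.20 to 0.81, limma adjusted p = 0.516), with 0.47 in lot 1 and 0.14 in lot 2. The interval includes 0 and reaches 0.81, so neither no difference nor a rise of that size is set aside by these 4 arrays.

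Ccr2, the receptor for the monocyte chemokine CCL2, read 6768 and 7333 units on the null arrays, against 4088 and 3228 units on the wild-type arrays. Both null values were above both wild-type values, with a gap of 1.66-fold between the nearest arrays. The log2 difference was 0.96 (SE 0.21, 95% confidence interval 0.39 to 1.52, limma adjusted p = 0.147). It was 0.73 in lot 1 and 1.18 in lot 2.

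F13a1 encodes the catalytic A subunit of coagulation factor XIII, the transglutaminase that cross-links fibrin, and is made by monocytes and macrophages as well as by megakaryocytes. Its signal was 22707 and 29433 units on the null arrays, against 11246 and 10036 units on the wild-type arrays. This was the largest difference of the 5 tested members, and the lower null array was 2.02-fold above the higher wild-type array. The log2 difference was 1.28 (SE 0.22, 95% confidence interval 0.68 to 1.88, limma adjusted p = 0.108), with 1.01 in lot 1 and 1.55 in lot 2. Megakaryocyte genes read higher in the same arrays: of 9 tested genes of a list added after values were seen, 8 had null arrays above and 1, Vwf, had them below wild type, against 22.6% and 23.2% of all tested genes. The summed signal of the 9 was 965883 and 852787 units on the null arrays, against 504491 and 505392 units on the wild-type arrays. The part of megakaryocyte RNA in the F13a1 difference was not tested.

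Cd163, the scavenger receptor of macrophages that takes up haemoglobin bound to haptoglobin, went the other way. It read 3309 and 2826 units on the null arrays, against 4867 and 5353 units on the wild-type arrays, so both null values were low and the groups were 1.47-fold apart at their nearest arrays. The means were 3067 ± 341 units in null and 5110 ± 344 units in wild type (SD, n = 2). The log2 difference was -0.74 (SE 0.19, 95% confidence interval -1.26 to -0.22, limma adjusted p = 0.196), with -0.56 in lot 1 and -0.92 in lot 2.

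Msr1, the class A scavenger receptor for modified lipoproteins, gave 151 and 273 units on the null arrays, against 129 and 124 units on the wild-type arrays. All 4 values lay within 94.5 to 310 units, the range of 3 probes of Y chromosome genes, absent from female mice, so no difference between genotypes is given for Msr1. The higher null value came from lot 2. Msr1 was below the limit of brightness for the test, and a fit without that limit did not call it either (limma adjusted p = 0.604).

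Among the 5 tested members, the sizes of the differences were larger in lot 2 than in lot 1 for Irf8, F13a1, Ccr2 and Cd163 and smaller for Klf4. With 1 array per genotype in each lot, the difference between lots was not tested. None of the 5 changed direction between lots. Among all tested genes, 33.6% were higher and 36.8% were lower in the null array of both lots. The median log2 difference of the 5 tested members was 0.96, and that of all tested genes was -0.02.

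**Figure D2:**
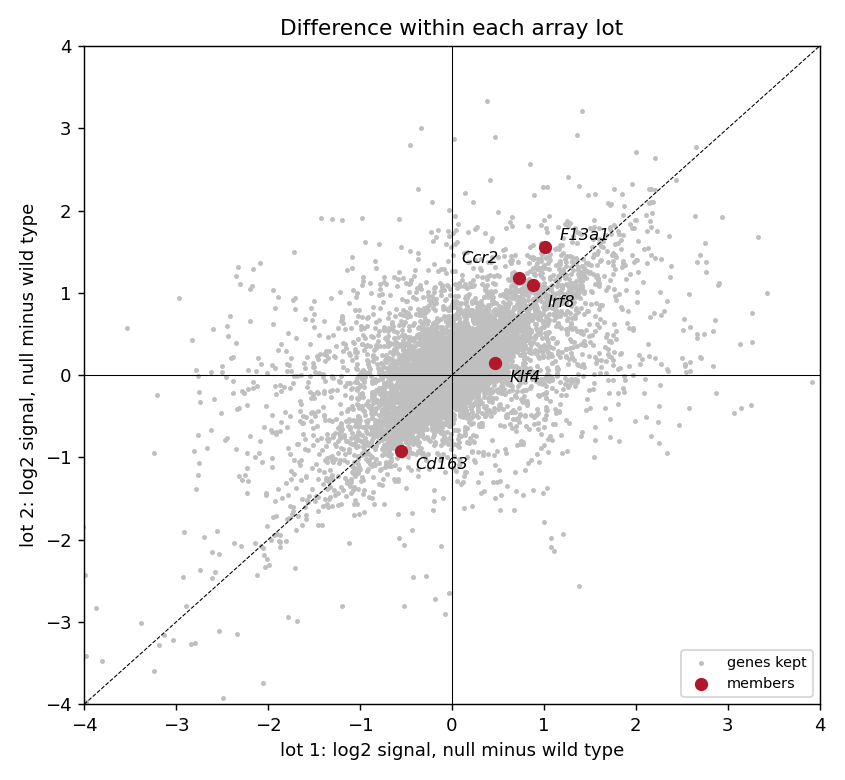
Log2 signal of null minus wild type in array lot 1 (horizontal axis) against lot 2 (vertical axis) for the genes tested (grey) and the 5 tested members (red); the dashed line marks equal differences, and 21 genes beyond 4 in either direction are not drawn. F13a1, Ccr2, Irf8 and Klf4 lie at the upper right of the origin and Cd163 at its lower left.

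The genes that work beside IRF8 and KLF4 in myeloid progenitors were read from a list of 23 transcription factors, of which 16 were tested and 0 passed limma at an adjusted p under 0.05. At an unadjusted p under 0.05, 5 were higher (9.65% of all genes) and 1 was lower (6.83% of all genes), and the list's median log2 difference was 0.47. Spi1, which encodes PU.1, the partner of IRF8 on composite DNA elements, read 17084 and 14587 units on the null arrays, against 8395 and 4237 units on the wild-type arrays. Both null values were high, with a log2 difference of 1.40 (limma adjusted p = 0.220). Gfi1 and Cebpe, regulators of the neutrophil branch, had larger log2 differences than Irf8, at 1.98 and 1.78 (limma adjusted p = 0.0840 and 0.145). Cebpb, a factor active in monocytes and in emergency granulopoiesis, had a log2 difference of 1.10 (limma adjusted p = 0.125). Jun had one of -0.56 and was the gene with a lower reading at an unadjusted p under 0.05.

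Within the IRF family, 7 members were tested, and the median log2 difference was -0.03. Irf8 had the highest difference of the 7. Irf7, a driver of type I interferon production, read 870 and 975 units on the null arrays, against 3841 and 1950 units on the wild-type arrays, and so went in the opposite direction (log2 difference -1.57, limma adjusted p = 0.181). Irf1 and Irf5 had values of 0.46 and 0.47, and Irf3, Irf9 and Irf4 had values of -0.03, -0.32 and -0.44. Of the 10 tested members of the KLF family, Klf6 (0.55) and Klf4 were the only ones whose null arrays both read above both wild-type arrays, a share near the 22.6% of all tested genes, and 5 read below both, against 23.2% of all tested genes. Klf5 was lowest, with 764 and 1036 units on the null arrays, against 3960 and 4260 units on the wild-type arrays (log2 difference -2.21, limma adjusted p = 0.0744).

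Other monocyte genes did not share 1 direction. Of 36 surface and effector genes listed, 25 were tested, with 0 passing limma at an adjusted p under 0.05, and 8 higher and 2 lower at an unadjusted p under 0.05. Over all tested genes these shares were 9.65% and 6.83%. Their median log2 difference was 0.15. Ly6c1 had 208577 and 175504 units on the null arrays, against 79832 and 53032 units on the wild-type arrays (log2 difference 1.56, limma adjusted p = 0.115). Its close paralogue Ly6c2, the monocyte gene, had no probe of its own, and cross-hybridisation between them was not tested. Ms4a6c, a membrane protein gene of monocytes, Ccl9, a chemokine gene, and Psap, the precursor of lysosomal saposins, had log2 differences of 1.04, 1.12 and 1.17. Csf2ra, the alpha chain of the GM-CSF receptor, had one of 0.84. Fn1 and Vcan, matrix genes of classical monocytes, read lower, at -0.77 and -0.93, and the lysozyme gene Lyz2 was level, at 0.03. The summed signal of the 25 genes was 2021306 and 2125039 units on the null arrays, against 1336496 and 1426221 units on the wild-type arrays. On the null arrays the largest part of it came from Plac8, a gene of many myeloid cells, with 1148030 and 1262240 units on the null arrays, against 662508 and 789183 units on the wild-type arrays (log2 difference 0.74, limma adjusted p = 0.203).

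Beside Cd163 and Msr1, resident macrophage and scavenger genes were mostly dim. Of 34 listed, 31 had a probe and 15 were tested, and 0 passed limma at an adjusted p under 0.05, with 2 higher and 3 lower at an unadjusted p under 0.05, against 9.65% and 6.83% of all tested genes. The macrophage marker gene Adgre1, which encodes F4/80, read 344 and 367 units on the null arrays, against 200.2 and 246 units on the wild-type arrays, at or near the range of the Y-linked probes. Mrc1, Vcam1, Mertk and Timd4 were likewise below the limit for the test, and the tested complement gene C1qa read between 749 and 982 units on the 4 arrays. Lower readings as for Cd163 were found for Slc40a1, Cd36 and Marco. Slc40a1, the iron exporter ferroportin, read 9236 and 6737 units on the null arrays, against 20069 and 12574 units on the wild-type arrays. Cd36, a class B scavenger receptor, had a log2 difference of -0.76. The scavenger receptor gene Marco had the lowest difference of the list, at -1.31. It read 294 and 380 units on the null arrays, at or near the range of the Y-linked probes, against 569 and 1208 units on the wild-type arrays. Olr1, a receptor for oxidised lipoprotein, read 3838 and 4905 units on the null arrays, against 710 and 948 units on the wild-type arrays. It had the highest difference of the list, at 2.40 (limma adjusted p = 0.0747). Apoe, the brightest tested gene of the list, was the other one higher at an unadjusted p under 0.05. It read 112288 and 95354 units on the null arrays, against 70653 and 41420 units on the wild-type arrays (log2 difference 0.94, limma adjusted p = 0.287).

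Among the chemokine genes listed with Ccr2, 6 were tested and 0 passed limma at an adjusted p under 0.05. Cxcr4, the receptor that retains progenitors in marrow, was higher at an unadjusted p under 0.05, with 12104 and 9634 units on the null arrays, against 6135 and 3487 units on the wild-type arrays. Ccr1, another receptor of monocytes and neutrophils, had a log2 difference of -0.64. Ccl2 and Ccl7, ligands of CCR2, were below the limit for the test. Of 12 dendritic cell genes tested, the other lineage that depends on Irf8, 2 were higher at an unadjusted p under 0.05, Clec10a (0.76) and Cd7 (0.80), against 9.65% of all tested genes. Siglech, a plasmacytoid dendritic cell gene, had a difference of 0.40 and the dendritic cell gene Clec9a one of -0.01. Zbtb46, a transcription factor of classical dendritic cells, had one of -1.56 (SE 0.57, limma adjusted p = 0.304). Its wild-type arrays lay far apart, at 2611 and 930 units, against 623 and 448 units on the null arrays. The list's median was 0.34.

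**Figure D3:**
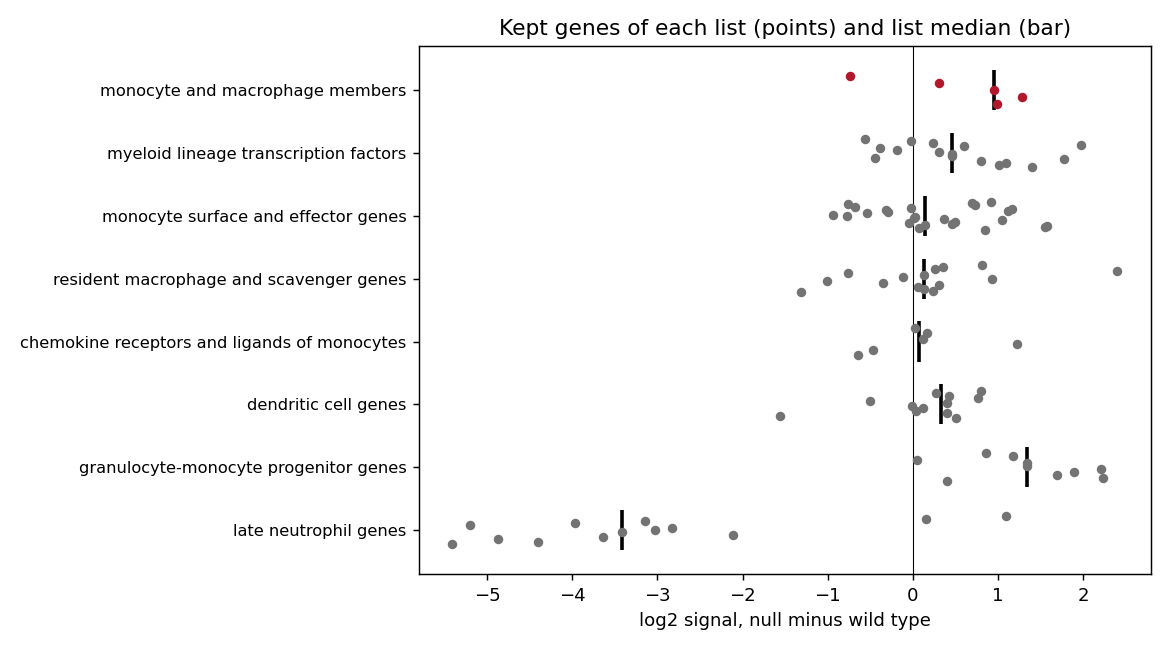
Log2 signal of null minus wild type (horizontal axis) for the tested genes of 8 lists, each point a gene and each bar a list median, with the 5 tested monocyte and macrophage genes in red at the top. The medians are 0.15 for monocyte surface and effector genes, 1.35 for granulocyte-monocyte progenitor genes and -3.41 for late neutrophil genes.

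Markers of other myeloid stages also differed between the genotypes, but not in 1 direction. Of the 10 tested genes of granulocyte-monocyte progenitors, 8 had both null arrays at least 1.5-fold above wild type within each lot. By the same measure 8.54% of all tested genes were higher and 5.76% lower. Mpo and Csf3r were not among the 8, with log2 differences of 0.40 and 0.05. Mpo read 1703090 and 973204 units on the null arrays, against 993744 and 951401 units on the wild-type arrays. The summed signal of the 10 genes was 4961095 and 4334685 units on the null arrays, against 2210176 and 2203241 units on the wild-type arrays. Late neutrophil genes gave 11 lower and 1 higher of 13 tested by the 1.5-fold measure. Their summed signal was 172779 and 161636 units on the null arrays, against 1377337 and 1492274 units on the wild-type arrays. At an adjusted p under 0.05 in limma, 7 of these 13 genes passed, all lower, against 0.118% of all tested genes. Of the 10 progenitor genes 0 passed. In such bulk samples, more cells of a type and more RNA per cell cannot be told apart. The part of these shifts in the signals of Irf8, F13a1, Ccr2 and Cd163 was not tested. Marker genes were read beside the label of the sample. All 7 stem and progenitor genes with a probe were tested, and 4 of 7 lineage antigen genes with a probe. Over the whole array 8444 of 13840 genes were tested, so these counts do not check the removal of mature cells. The late neutrophil gene S100a9 read 77450 and 73485 units on the null arrays, against 730356 and 886196 units on the wild-type arrays. The CD11b gene Itgam gave 321 and 690 units on the null arrays, against 663 and 357 units on the wild-type arrays. Cd5, a T cell antigen gene, was brighter, at 3618 and 4179 units on the null arrays, against 3095 and 4646 units on the wild-type arrays. Klrb1c, the natural killer antigen NK1.1, read 959 and 962 units on the null arrays, against 350 and 374 units on the wild-type arrays (log2 difference 1.41, limma adjusted p = 0.0909). The B cell gene Ms4a1 gave 68.0 and 143 units on the null arrays, against 1444 and 1767 units on the wild-type arrays. By its mean log2 signal over the 4 arrays Ms4a1 was below the limit for the test (417 units), though both wild-type values were above it. The Cbfa2t3 probe read 95520 and 118572 units on the null arrays, against 80854 and 100256 units on the wild-type arrays, and as the files do not say which exon it matches, it cannot check the genotype labels.

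Irf8 lies on chromosome 8, as does Cbfa2t3, with 31 protein-coding genes between them in the RefSeq annotation. Of these, 24 had a probe and 16 were tested. Their log2 differences ranged from -1.06 for Galns to 0.63 for Mvd, with a median of -0.30, and Irf8 was above all of them. In both lots 3 of the 16 were higher in null and 10 were lower, against 33.6% and 36.8% of all tested genes. At an unadjusted p under 0.05 there were 0 higher and 5 lower, against 9.65% and 6.83% of all tested genes, and 0 passed limma at an adjusted p under 0.05. Cox4i1 and Foxf1, the genes on either side of Irf8, had differences of -0.11 and -0.47. Any strain background kept around Cbfa2t3 after the backcross cannot be told apart from the genotype.

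**Figure D4:**
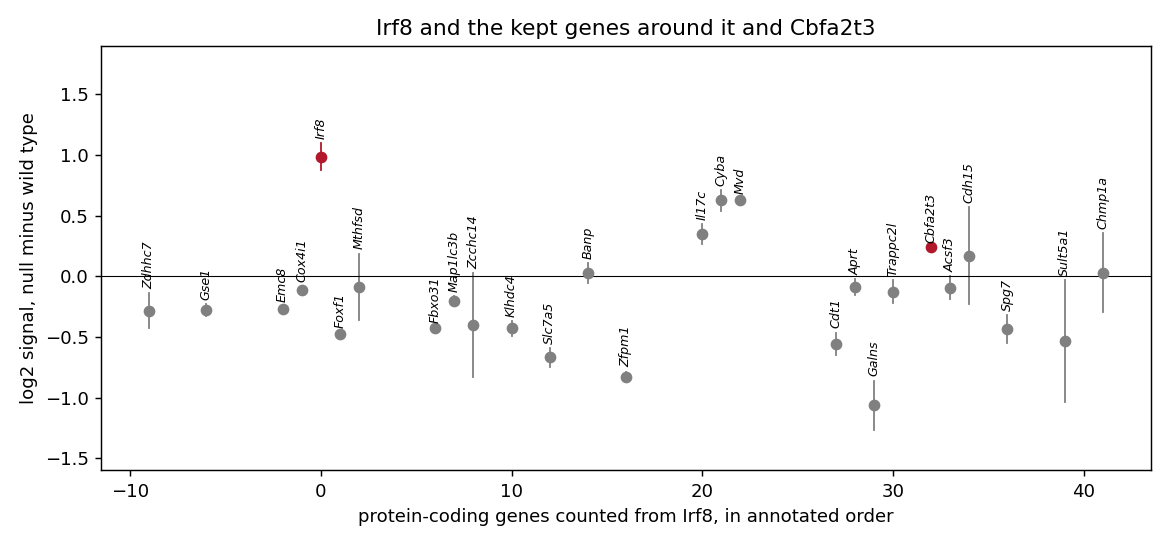
Log2 signal of null minus wild type (vertical axis) for the tested genes around Irf8 and Cbfa2t3, placed by their order among protein-coding genes counted from Irf8 (horizontal axis); points are means over both lots and lines join the values of the 2 lots. Irf8, at 0.99, is above every other gene drawn, and Galns, at -1.06, is lowest.

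The tested genes whose 4 signals were most like those of a member were found by Euclidean distance between log2 values centred on each gene's own mean. For Irf8 they were Ap3s1 (distance 0.03), Il16 (0.10) and Ifitm1 (0.10). Ap3s1, an adaptor subunit of endosomal sorting, read 99314 and 96787 units on the null arrays, against 53977 and 46806 units on the wild-type arrays, the same arrangement of high, level null values and of a higher lot 1 in wild type. For F13a1 they were Rab7b (0.09), Atp13a2 (0.10) and Tmem144 (0.15), and for Ccr2 they were Pecam1 (0.08), Pdia6 (0.10) and Ncoa4 (0.11). Rab7b, an endosomal GTPase gene, read 1315 and 1570 units on the null arrays, against 643 and 554 units on the wild-type arrays. These distances describe 4 arrays that share a lot structure.

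The number of genes called depends on the fit, and with it the status of Irf8, F13a1 and Ccr2. Among the brightest 25% of probes, 3.83% of genes passed limma as higher in null (5.86% in either direction), and Irf8, F13a1 and Ccr2 were called higher (adjusted p = 0.0332, 0.0268 and 0.0492). With a variance trend in limma, 2.14% of genes passed as higher (3.49% in either direction), and Irf8 and F13a1 were called higher (adjusted p = 0.0357 and 0.0326) while Ccr2 was not (0.0807). With the array lot as a block, 0 of the members passed (Irf8 adjusted p = 0.113, F13a1 0.121, Ccr2 0.134, Cd163 0.146), and 0 of all genes did, with 24.3% at an unadjusted p under 0.05. Cd163 did not pass under any of the settings tried, its lowest adjusted p being 0.0771.

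**Figure D5:**
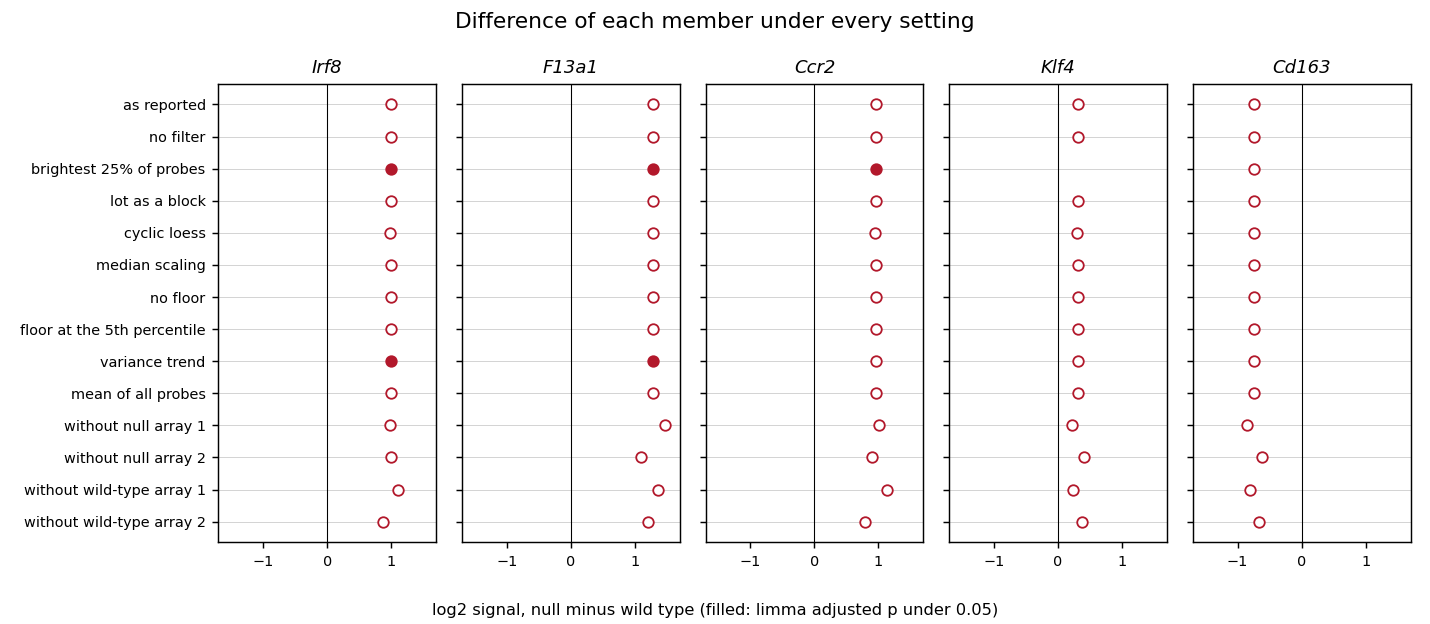
Log2 signal of null minus wild type (horizontal axis) of the 5 tested members under the reported setting and 13 alternatives (rows); filled points mark a limma adjusted p under 0.05 and a missing point means that the gene was not tested under that setting. Points of Irf8 lie between 0.87 and 1.10, those of F13a1 between 1.10 and 1.47, those of Cd163 between -0.85 and -0.63, and 5 points are filled.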

How the data were processed

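Lineage-negative marrow RNA from pooled mice was measured on 2 Mtg16-null and 2 wild-type single-colour Applied Biosystems arrays, per the labels' protocols. The deposited numbers are linear probe intensity for 33012 probes, from 28.2 to 3093950 units, and their sorted values agree between arrays within 0.286%, so the authors had quantile normalized them. For the scanner software, background correction and filters: not given in the sources used here. Precision is limited by the number of arrays.

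The platform annotation supplied names: 14411 had 1 gene symbol, 247 several and 18354 none. Entrez identifiers of 14402 were found in RefSeq (GRCm38.p6), which changed 0 symbols. Signals under the 1st percentile (75.8 units) were raised to it, log2 was taken, and genes whose probe was in the brightest 50% by mean log2 signal were tested. Differences are null minus wild type, fitted by lmFit and eBayes of limma 3.58.1 under R 4.3.3 (genotype as the only term, 2 residual and 2.11 prior degrees of freedom), with Benjamini-Hochberg adjustment over all 8444 genes. The fitting code was tested on simulated data. The replicate number is the array lot, per the series text, and pairs the arrays: deviations of same-lot arrays from their group means correlated at 0.50 across genes. Figures used matplotlib 3.10.9 in Python 3.11.15.

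The members and lists were chosen with earlier results of these data known. By a rule on size, from each list up to 4 highest and 4 lowest genes by the smaller within-lot difference could be named. Also covered by the rule were the 3 genes nearest in pattern to Irf8, F13a1 and Ccr2 and the neighbours of Irf8. Lyz2, Csf2ra, Siglech, Clec9a, Adgre1, C1qa, Itgam, Cd5, Klrb1c, Ms4a1, Plac8, Mpo, Csf3r and the dim genes were named after their values were seen. Alternatives covered the filter, floor, scaling, variance prior, probe choice, lot block and each array left out.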

Additional observations from a re-analysis of the deposited data

How the results depend on the processing

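The 5 tested members kept their direction under the 13 alternatives, except that Klf4 was not in the brightest 25% of probes and has no value there. With 1 array left out, 0 members were called, and the log2 differences ran from 0.87 to 1.10 for Irf8, 1.10 to 1.47 for F13a1, 0.78 to 1.13 for Ccr2, 0.21 to 0.40 for Klf4 and -0.85 to -0.63 for Cd163.

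The brightest 25% of probes gave 3 called members (Irf8 at 0.99, F13a1 at 1.28 and Ccr2 at 0.96) and 291 called genes over all, and a variance trend gave 2 (Irf8 at 0.99, F13a1 at 1.28) and 295, against 0 and 10 as reported. In the first, fewer genes are tested and the variance prior is estimated from those genes alone. The unadjusted limma p of Irf8 was 0.00142 there, against 0.00532 as reported. The second lets the variance prior depend on signal. Over all genes limma called 0 without the filter (1514 at an unadjusted p under 0.05), 0 with the replicate block of array lots (2055) and 0 with any of the 4 arrays left out (678 to 1437), where the lone array of its group is assumed to vary like the other group. The block changed no call of a member. Cyclic loess, median scaling, either floor and the mean of all probes left the calls of members at 0, and scaling could change little, since the values were already normalized. Genes near the level of Msr1 are not resolved from background.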
